A study of Mus musculus with 18 samples.

Results

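Isoproterenol (ISO), which stimulates the β-adrenergic receptors, was compared directly with SR-3420, which activates lipolysis below the receptor, in mouse brown adipocytes without inhibitors. The members are the 3 ISO samples and the 3 SR-3420 samples of the series, 6 of its 18 samples, chosen by their titles. No measured value enters that rule, though earlier results of these data were known when it was set. All cells were BAT-LgT, a single wild-type line of brown preadipocytes made immortal by SV40 large T antigen, differentiated in culture and treated on day 7. The ISO group received 100 nM ISO for 3 h. The SR-3420 group received SR-3420 for 3 h, at 10 µM per the labels. The text of the study gives another dose of SR-3420, and which one these samples received was not settled. The 3 Vehicle samples received DMSO, the solvent, and serve here as the reference for levels. A further 9 samples were given inhibitors of adipose triglyceride lipase (ATGL) and hormone-sensitive lipase (HSL) for 1 h before the same 3 treatments, and carry the prefix Lipase Inh. + before the name of the treatment (n = 3 each). The study describes replicates as independent experiments, but no label says that a number marks one, and p-values measure the spread between these samples.

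As background, binding of an agonist to β-adrenergic receptors activates adenylyl cyclase, and the cyclic AMP (cAMP) it makes activates protein kinase A (PKA). PKA phosphorylates the transcription factor CREB, which binds cAMP response elements in promoters, and it phosphorylates HSL and perilipin, so that the co-activator ABHD5 is freed and ATGL releases fatty acids from stored triglyceride. SR-3420 binds ABHD5 and displaces it from perilipin, so the receptor is bypassed. The comparison asks which transcripts differ when lipolysis is started through the receptor and when it is started at the lipase itself. In brown fat, both steps precede heat production, since fatty acids fuel and activate the uncoupling protein UCP1.

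RNA-seq counts per gene were read for 20295 genes, of which 12156 passed the filter on low counts. Total counts ranged from 10564491 to 16062284 in the ISO samples and from 12677088 to 19275913 in the SR-3420 samples. The gene with the most counts in all 6 samples was Scd1, the stearoyl-CoA desaturase that makes monounsaturated fatty acids, with 7.67% to 8.61% of the counts with ISO and 4.47% to 5.45% with SR-3420. The mean TMM factor, which corrects the library size for such shares, was 0.895 for ISO and 0.990 for SR-3420, and scaling by total counts alone moved the median log2 fold change (log2FC) by -0.15. Of 10 adipocyte markers, 9 passed the filter, and the sum over all 10 was 17660 to 18404 CPM (counts scaled to a common library size) in ISO samples and 15451 to 16068 in SR-3420 samples. Lep was at 2 counts or fewer. Of 10 brown adipocyte markers, Zic1 had 0 counts in all 6 samples, Dio2 had at most 6 and Cox7a1 at most 21, while Ucp1, Ppargc1a, Elovl3, Cidea and Prdm16 were detected in all samples. The labelled cell type was thus met by the general adipocyte markers and by part of the brown ones. Markers of macrophages and endothelial cells were low, whereas some markers of preadipocytes or fibroblasts were clearly detected. Of the skeletal muscle markers only Mb was clearly detected, at a mean of 50.0 CPM with ISO and 53.6 CPM with SR-3420. The summed level of the 8 macrophage markers was 7.98 to 15.4 CPM with ISO and 7.23 to 8.20 CPM in SR-3420 samples. Ptprc and Emr1 were at 0 counts, Cd68 had 34 to 70 and Cd14 37 to 108, and Cd14 was higher with ISO (0.70 ± 0.26, adjusted p = 0.0496), which did not hold in 10 alternative fits (adjusted p = 0.362 without ISO sample 2). No endothelial marker passed the filter. Of 7 skeletal muscle markers Myf5, Ckm and Myh4 were at 0, Myog had at most 1 count, and Myod1 and Acta1 had at most 22 and 23. Myod1 was higher with ISO (1.52 ± 0.57, adjusted p = 0.0482), a call that several alternative fits did not make. The summed level of the 10 preadipocyte or fibroblast markers was 235 to 306 CPM in ISO samples and 295 to 328 in SR-3420 samples, and of its 8 members tested Pdgfrb (-0.67 ± 0.14, adjusted p = 0.000832) and Col1a1 (-0.37 ± 0.10, adjusted p = 0.00795) were lower with ISO, the latter not past the threshold without ISO sample 2 (adjusted p = 0.058). In whole cultures, fewer cells of a type and less RNA per cell cannot be told apart, and the part of these markers in the results below was not tested.

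Transcripts that differed between ISO and SR-3420 lay on both sides. Among genes with a mean log2 CPM of 3 or more, Nr4a3 and Ucp1 led those higher with ISO, and Egr1 and Egr2 those higher with SR-3420. A call needed an adjusted p-value of 0.05 or lower by edgeR's quasi-likelihood test and an absolute log2FC of at least 1. By that rule 149 genes (1.23% of those tested) were higher with ISO and 99 (0.814%) were lower with ISO, that is, higher with SR-3420. Without the threshold on fold change, 1916 genes (15.8%) were higher and 1693 (13.9%) lower. On total counts alone the calls were 108 and 178, so that 37.8% of the calls were higher with ISO in place of 60.1%, and differences are stated relative to the shift of -0.15. The 3 ISO samples lay wholly above the 3 SR-3420 samples in 145 of the 149 genes (97.3%) and wholly below in 98 of the 99 (99.0%), against 22.4% and 21.5% of all genes tested. Of the called genes, 55 of the 149 and 61 of the 99 had an average log2 CPM under 3.

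The called genes, which were chosen on the ISO and SR-3420 samples, are described next by the position of both groups relative to Vehicle, and nothing is read from these counts. In 63 of the 149 both the ISO and the SR-3420 samples lay above all Vehicle samples, as in 20.9% of all genes tested. These include Ucp1, Ppargc1a, Pde4d and Pck1. In 51 genes (all tested: 6.39%) ISO lay above Vehicle while SR-3420 overlapped with it, as for Vdr, Cldn1, Trib1 and Nr4a2. In 13 genes (all tested: 0.913%) ISO lay above and SR-3420 below Vehicle, as for Irf4, Slc25a42 and St3gal1, and in 12 (8.39%) ISO overlapped with Vehicle and SR-3420 lay below it. Both overlapped with Vehicle in 8 genes (29.0%) and both lay below it in 2 (18.4%). Nr4a2 and Pck1 were named after their values were seen.

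Among the 99 genes lower with ISO, both groups lay above Vehicle in 21, among them Egr1, Fos, Ddit3 and Chac1. In 24 (all tested: 6.96%), SR-3420 lay above Vehicle and ISO overlapped with it, as for Egr2, G0s2, Arc and Angptl4. SR-3420 lay above and ISO below Vehicle in 6 (0.592%) low or moderately expressed genes, of which Lpar4 and Trim47, picked after their values were seen, had the highest levels. In 26 genes (8.43%) ISO lay below Vehicle and SR-3420 overlapped with it, as for Nfe2l3, and in 10 both lay below. Both overlapped with Vehicle in the other 12.

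**Figure D1:**
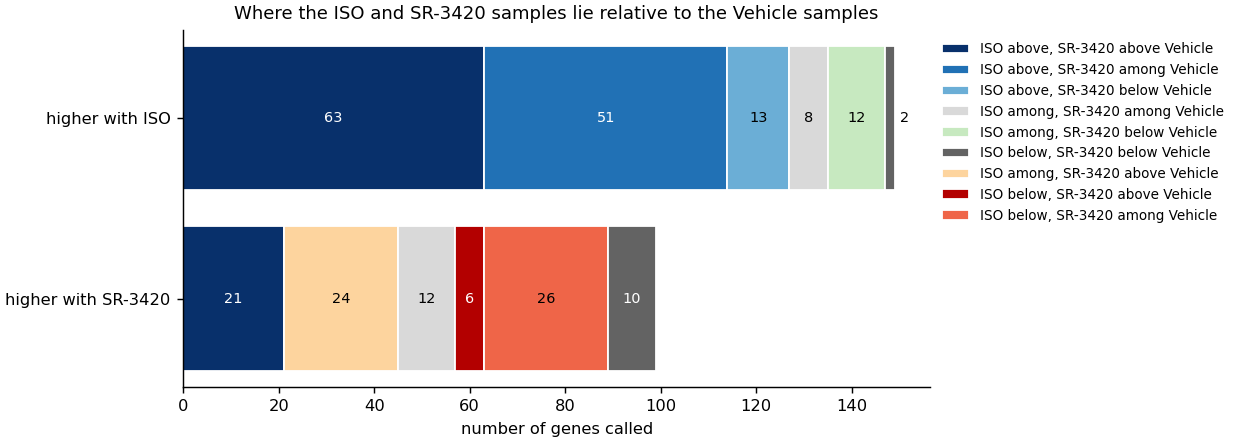
Number of genes called higher with ISO (149) and higher with SR-3420 (99), split by whether all 3 ISO samples and all 3 SR-3420 samples lay above, among or below the 3 Vehicle samples. The largest classes are 63 genes above Vehicle in both groups for the first set, and 26 genes with ISO below Vehicle and SR-3420 among the Vehicle samples for the second.

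The 12 genes with the largest excess with ISO at a mean log2 CPM of 3 or more included Nr4a3, Vdr, Ppargc1a and Pde4d of the cAMP list, and Ucp1. Nr4a3, an orphan nuclear receptor induced rapidly by cAMP in many cells (mm9 chromosome 4, 48064120 to 48096224), stood at 124, 120.1 and 113 CPM in ISO samples 1, 2 and 3 and at 1.03, 1.99 and 0.681 CPM in SR-3420 samples 1, 2 and 3. In Vehicle it was at 0.316, 0.155 and 0 CPM, so the SR-3420 samples also lay above Vehicle, at levels that remained low. The difference was a log2FC of 6.67 ± 0.20, adjusted p = 3.24e-16. Ucp1, which encodes the uncoupling protein (mm9 chromosome 8, 85814247 to 85822355), reached 359, 474 and 257 CPM with ISO and 10.7, 16.9 and 8.13 CPM with SR-3420, with 2.34, 3.17 and 2.56 CPM in Vehicle. The groups were wholly separate, and ISO was 31.4-fold above SR-3420 (log2FC 4.97 ± 0.23, adjusted p = 6.60e-13).

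Vdr, the vitamin D receptor (mm9 chromosome 15, 97684858 to 97738727), was at 90.6, 104 and 82.98 CPM with ISO. With SR-3420 it was at 12.1, 10.03 and 11.7 CPM and in Vehicle at 10.6, 11.2 and 12.8 CPM, which overlap. ISO exceeded SR-3420 8.19-fold (log2FC 3.03 ± 0.09, adjusted p = 3.24e-16). Ppargc1a, which encodes the coactivator PGC-1α of mitochondrial genes (mm9 chromosome 5, 51845488 to 51945160), was at 1063, 1011 and 1167 CPM with ISO. SR-3420 gave 159, 147 and 149 CPM and Vehicle 68.1, 86.6 and 72.4 CPM, with all 3 groups apart. ISO exceeded SR-3420 7.11-fold (log2FC 2.83 ± 0.08, adjusted p = 3.24e-16).

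The top genes higher with ISO included a cyclase that makes cAMP and a phosphodiesterase that degrades it. Adcy3, an adenylyl cyclase, was at 86.05, 95.6 and 77.7 CPM with ISO, 13.3, 12.9 and 11.2 CPM with SR-3420 and 5.06, 5.56 and 3.35 CPM in Vehicle (log2FC 2.80 ± 0.12, adjusted p = 1.03e-13). Its span overlaps Cenpo on the other strand by 1853 bases, and whether reads were counted by strand was not given. Pde4d, a phosphodiesterase that degrades cAMP, was at 606, 558 and 601 CPM with ISO and 95.1, 85.8 and 91.3 CPM with SR-3420, against 29.4, 29.1 and 34.8 CPM in Vehicle (log2FC 2.70 ± 0.09, adjusted p = 1.95e-15). Neither gene's groups overlapped.

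Irf4, a transcription factor of the interferon regulatory factor family, moved to opposite sides of Vehicle. It stood at 163, 155 and 221 CPM in Vehicle, at 608, 525 and 691 CPM with ISO and at 90.2, 85.8 and 95.1 CPM with SR-3420. Against Vehicle its log2FC was 1.76 ± 0.15, adjusted p = 3.56e-09 with ISO and -0.99 ± 0.15, adjusted p = 1.81e-05 with SR-3420, and between the agents it was 2.75 ± 0.16, adjusted p = 2.89e-11. The other 5 genes of the top 12 were Cldn1, a tight junction claudin, Lrrn4cl, Dos, Krt13, a keratin, and Trib1, a pseudokinase, with log2FC between 2.00 and 3.50. In all 5 the SR-3420 samples overlapped with Vehicle. Krt13 was uneven within groups, with 9.78, 16.4 and 6.51 CPM with ISO and 4.11, 3.11 and 1.36 CPM with SR-3420. The span of Dos overlaps Stk11 on the other strand by 252 bases.

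**Figure D2:**
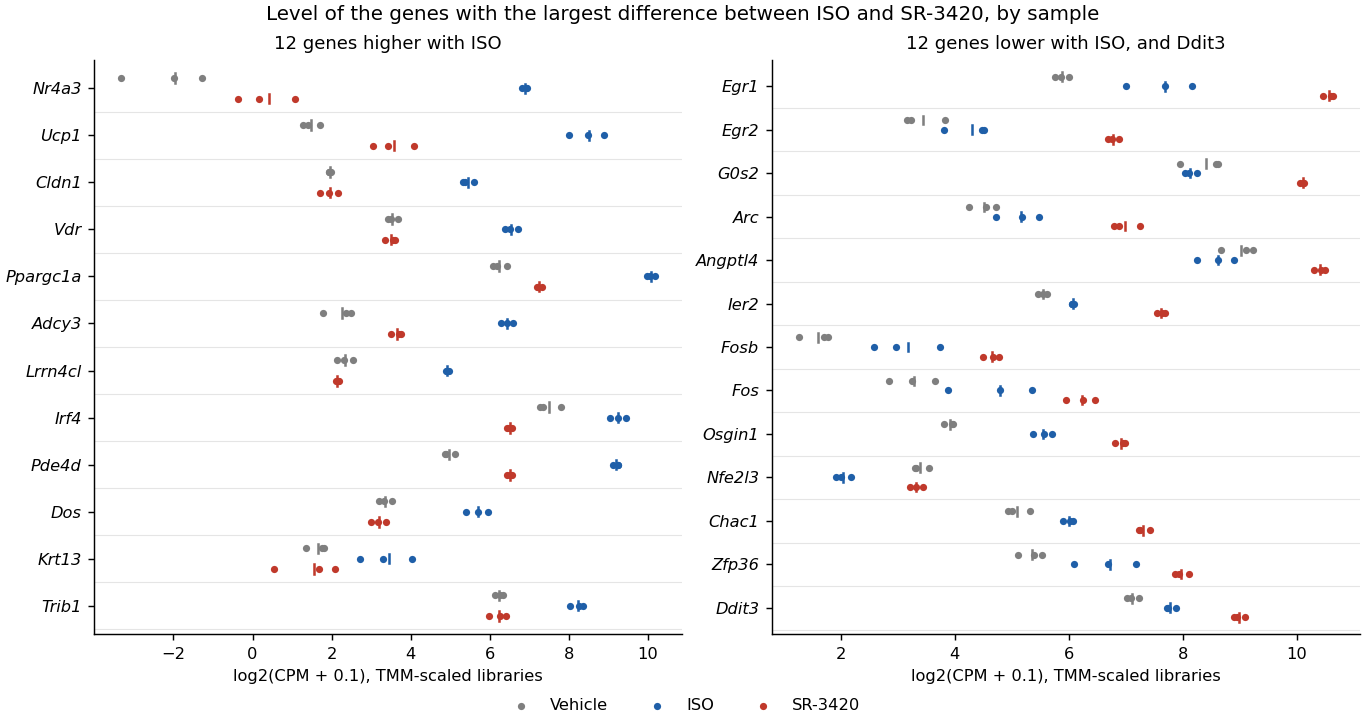
Levels of the 12 genes with the largest difference in each direction at a mean log2 CPM of 3 or more, and of Ddit3, as log2(CPM + 0.1) in each of the 3 Vehicle (grey), ISO (blue) and SR-3420 (red) samples. Points are samples and vertical ticks are the log2 of the group mean with the same pseudocount. ISO and SR-3420 do not overlap in any of the 25 genes, and SR-3420 overlaps with Vehicle for Cldn1, Vdr, Lrrn4cl, Dos, Krt13, Trib1 and Nfe2l3.

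The promoters of genes on both sides are shown next, since cAMP, serum and stress signals are known to act through short promoter elements, and the letters show which of them these genes hold. RefSeq gives windows from 250 bases before to 50 after a gene's start on GRCm38.p6, a later build than the mm9 of the counts, for 112 of the 149 genes higher with ISO and 70 of the 99 lower. Each window is written 5′ to 3′ on the gene's own strand. Capitals mark the core cAMP response element TGACG, or its reverse complement CGTCA, in the first 4 windows. In the Zfp36 window they mark a CArG box, the element bound by serum response factor, and in the Chac1 window the C/EBP-ATF element TGATGNAA, here read on the other strand. The windows shown were picked for holding a match. The CArG box was added to the search after the expression values were seen.

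Nr4a3, chr4:48045055-48045354, plus strand: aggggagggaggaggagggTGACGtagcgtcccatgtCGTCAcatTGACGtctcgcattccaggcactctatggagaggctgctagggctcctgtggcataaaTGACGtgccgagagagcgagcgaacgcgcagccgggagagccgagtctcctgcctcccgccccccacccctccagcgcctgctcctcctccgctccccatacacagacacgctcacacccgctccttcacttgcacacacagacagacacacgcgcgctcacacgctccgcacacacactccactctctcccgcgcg

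Ucp1, chr8:83290098-83290397, plus strand: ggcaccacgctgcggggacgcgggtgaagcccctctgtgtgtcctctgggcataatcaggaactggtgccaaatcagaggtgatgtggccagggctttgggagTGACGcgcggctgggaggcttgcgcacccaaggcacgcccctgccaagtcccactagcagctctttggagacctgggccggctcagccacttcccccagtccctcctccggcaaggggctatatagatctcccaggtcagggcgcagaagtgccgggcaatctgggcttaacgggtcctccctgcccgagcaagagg

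Ppargc1a, chr5:51567676-51567975, minus strand: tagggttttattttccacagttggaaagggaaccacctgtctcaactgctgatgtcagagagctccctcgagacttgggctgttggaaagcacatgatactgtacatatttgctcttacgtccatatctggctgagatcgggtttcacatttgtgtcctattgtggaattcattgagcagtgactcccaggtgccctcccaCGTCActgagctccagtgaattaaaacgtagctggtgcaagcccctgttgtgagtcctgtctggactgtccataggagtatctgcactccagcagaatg

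Fos, chr12:85473640-85473939, plus strand: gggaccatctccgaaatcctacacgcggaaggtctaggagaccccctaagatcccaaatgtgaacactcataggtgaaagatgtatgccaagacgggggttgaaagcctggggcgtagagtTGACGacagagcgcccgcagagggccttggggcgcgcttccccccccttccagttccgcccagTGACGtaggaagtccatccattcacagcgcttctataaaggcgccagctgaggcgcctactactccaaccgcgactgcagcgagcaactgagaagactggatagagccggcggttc

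Zfp36, chr7:28379179-28379478, minus strand: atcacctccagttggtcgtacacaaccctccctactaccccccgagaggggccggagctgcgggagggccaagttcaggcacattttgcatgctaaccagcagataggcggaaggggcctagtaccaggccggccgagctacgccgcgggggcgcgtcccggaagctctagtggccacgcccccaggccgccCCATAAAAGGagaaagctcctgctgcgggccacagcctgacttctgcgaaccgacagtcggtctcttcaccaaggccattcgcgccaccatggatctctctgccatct

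Chac1, chr2:119350992-119351291, plus strand: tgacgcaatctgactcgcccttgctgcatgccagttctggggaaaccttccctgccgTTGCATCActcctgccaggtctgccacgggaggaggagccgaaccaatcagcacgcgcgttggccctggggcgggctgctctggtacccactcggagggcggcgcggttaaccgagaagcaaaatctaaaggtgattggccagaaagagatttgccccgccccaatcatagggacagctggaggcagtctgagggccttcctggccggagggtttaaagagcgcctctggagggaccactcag

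The Nr4a3 window holds 4 core cAMP response elements, that of Fos 2, and those of Ucp1, Ppargc1a and Chac1 1 each, left in lower case for Chac1. Of the other top genes higher with ISO, Dos holds 1 in window 2, and the windows of Vdr, Cldn1, Adcy3, Irf4, Pde4d and Krt13 hold 0. Of the other top genes lower with ISO, Egr2 windows hold up to 2 and those of Fosb and G0s2 1. The windows of Osgin1, Nfe2l3 and Zfp36 hold 0. A window with the core element was found for 36.6% of the 112 genes higher with ISO and 24.3% of the 70 lower, against 35.6% of the 9729 tested genes with a window and 23.0% of all 27025 genes in the table. The full element TGACGTCA, which contains the core element on both strands, was in 1.79% and 1.43%, against 3.64% of tested genes. The share among genes higher with ISO was thus near that of all tested genes. The C/EBP-ATF element was in 3.57% of genes higher and 7.14% of genes lower with ISO (4 and 5 genes), against 2.64%, and the CArG box in 4.46% and 5.71% (5 and 4 genes), against 1.62%. The core element can also overlap the hypoxia element ACGTG, which was in 27.7% and 21.4%, against 29.4%. For the NR4A element AAAGGTCA the shares were 2.68% and 1.43% (3 genes and 1 gene), against 1.13%. For the heat shock element they were 1.79% and 2.86% (2 and 2 genes), against 0.596%. The DR1 element of PPAR dimers was in 0 windows of either set. All motifs were searched on both strands. A match describes letters only, and its absence from such a short window says nothing of a factor's binding elsewhere.

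Across the 19 gene lists, cAMP and CREB response genes stood highest. The lists were written with earlier results of these data known, so their order is a description only. Of 32 members tested, 12 were called higher and 2 lower with ISO, and without the fold threshold 20 were higher and 8 lower (all genes tested: 15.8% and 13.9%). Those shares of all genes are the reference for the counts of every list below. The median log2FC was 0.53, against -0.01 over all genes tested, and the median against Vehicle was 1.56 with ISO and 0.62 with SR-3420. The 12 members higher with ISO comprise the 3 Nr4a nuclear receptors, the phosphodiesterases Pde4b, Pde4d, Pde7b and Pde10a, the repressor Crem, the kinase Sik1, and Vdr, Ppargc1a and Pck1. The 2 lower were Fos and Fosb, subunits of the AP-1 transcription factor. Dusp1, a phosphatase of MAP kinases on the same list, was also lower with ISO (log2FC -0.77 ± 0.14, adjusted p = 0.000376) although both agents placed it above Vehicle. It was at 253, 319 and 171 CPM with ISO, 414, 457 and 399 CPM with SR-3420 and 37.3, 38.02 and 30.1 CPM in Vehicle. The members beyond Nr4a3, Vdr, Ppargc1a, Fos, Fosb and Dusp1 were named after their values were seen.

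Of the receptor-to-PKA cascade itself, 1 gene passed both thresholds. Of 25 tested, Adcy3 alone was called. Without the fold threshold 7 (28%) were higher and 3 (12%) lower, against 15.8% and 13.9% of all genes tested. The median log2FC of 0.03 became -0.12 on total counts alone. Of the regulatory subunits of PKA, which hold the kinase inactive, Prkar1a and Prkar2b were higher with ISO, as was Prkar2a (0.26), while Prkar1b did not pass (-0.44 ± 0.22, adjusted p = 0.139), the latter pair named after their values were seen. Prkar1a was at 689, 730.1 and 684 CPM with ISO and 418, 405 and 390.2 CPM with SR-3420 (log2FC 0.79 ± 0.06, adjusted p = 1.11e-09), and Prkar2b had a log2FC of 0.74 ± 0.09, adjusted p = 2.41e-06. The cyclases Adcy9 (-0.32) and Adcy5 (-0.46) and the receptor kinase Grk5 (-0.54) were lower with ISO, with adjusted p-values of 0.00424, 0.00926 and 0.0155. For Adrb3, the β3-receptor of adipocytes, named after its values were seen, the log2FC between the agents was -0.22 with a 95% confidence interval of -0.54 to 0.11 (adjusted p = 0.317). Its log2FC against Vehicle was -1.60 ± 0.15, adjusted p = 1.68e-08 with ISO and -1.39 ± 0.15, adjusted p = 1.55e-07 with SR-3420.

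Thermogenic and brown fat genes that passed the test were higher with ISO in all cases but Ebf2. Of 24 tested, 6 were called higher and 0 lower, and 13 were higher and 1 lower without the fold threshold, with a median log2FC of 0.39. The medians against Vehicle were 0.43 with ISO and 0.49 with SR-3420. The list has 31 members in the count table, so 7 did not pass the filter. Besides Ucp1 and Ppargc1a, Gyk, the glycerol kinase that lets adipocytes reuse glycerol, was at 294, 342 and 267 CPM with ISO and 97.2, 99.9 and 80.8 CPM with SR-3420, against 33.6, 39.2 and 33.9 CPM in Vehicle (log2FC 1.70 ± 0.10, adjusted p = 1.68e-11). Elovl3, a fatty acid elongase of cold-exposed brown fat, was at 52.4, 66.1 and 48.5 CPM with ISO and 25.4, 27.3 and 23.9 CPM with SR-3420, against 4.87, 4.79 and 3.35 CPM in Vehicle (log2FC 1.13 ± 0.11, adjusted p = 2.04e-07). Gpr3 and Clstn3 were the other 2, named after their values were seen. Ebf2, a factor of brown fat identity, was the member lower with ISO. It was at 196, 184 and 180.2 CPM with SR-3420 and at 115, 115 and 129 CPM with ISO, the latter within the Vehicle range of 114, 143 and 112 CPM (log2FC -0.64 ± 0.10, adjusted p = 4.23e-05). Its span overlaps Gm6878 on the other strand by 9824 bases.

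**Figure D3:**
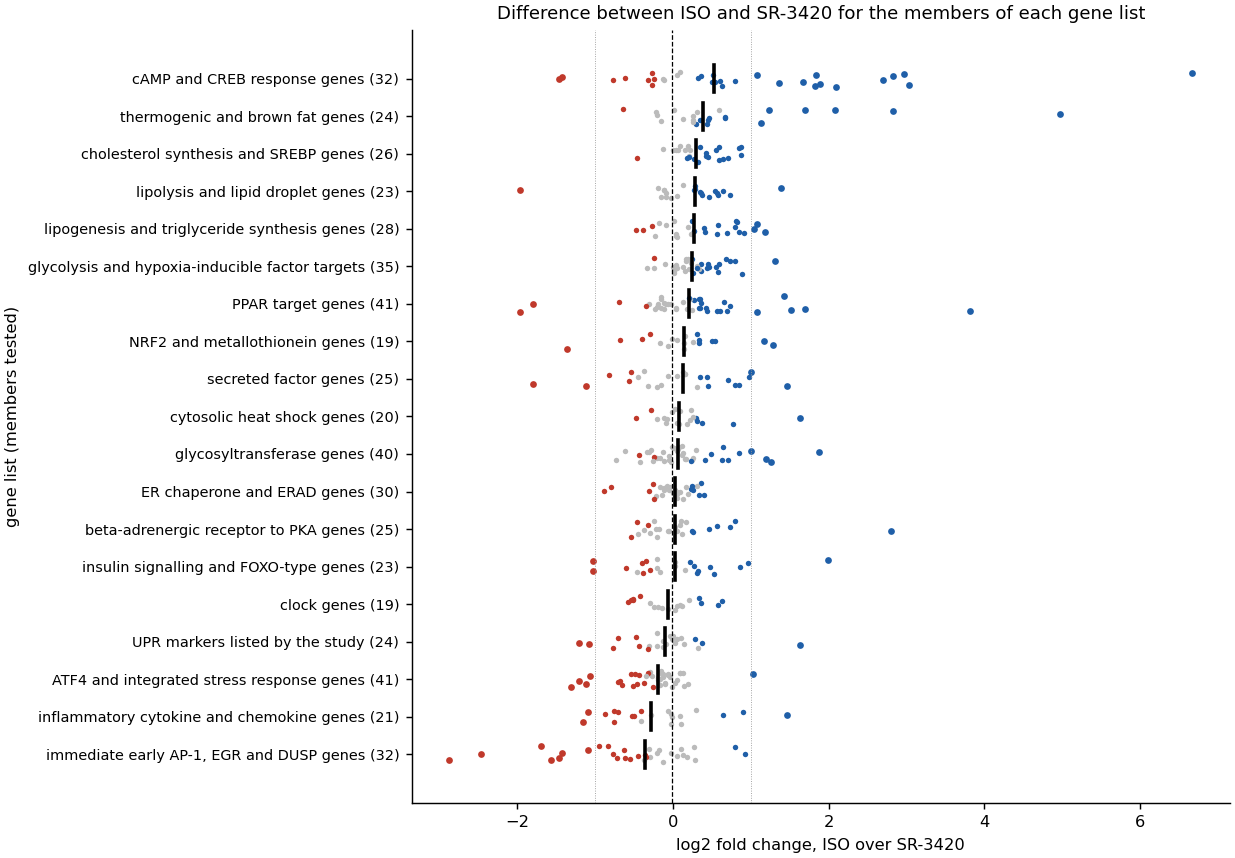
Log2FC of ISO over SR-3420 for each tested member of the 19 gene lists, ordered by list median. Blue and red points passed an adjusted p of 0.05 above and below 0, with larger points at an absolute log2FC of at least 1 (dotted lines), grey points did not pass, thick bars are list medians, and the dashed line is the median of all genes tested. Medians run from -0.36 for immediate early genes to 0.53 for cAMP and CREB response genes.

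Immediate early genes, the transcripts that growth factors and stress switch on first, stood lowest. Of 32 tested, 0 were called higher and 7 lower with ISO, and without the fold threshold 2 were higher and 17 lower. The median log2FC was -0.36, while the medians against Vehicle were 1.57 with ISO and 2.13 with SR-3420. Egr1, a zinc finger transcription factor, was at 1539, 1584 and 1402 CPM with SR-3420, 204, 285 and 127 CPM with ISO and 57.8, 53.9 and 63.96 CPM in Vehicle. It was 7.32-fold higher with SR-3420 than with ISO (log2FC -2.87 ± 0.17, adjusted p = 2.77e-11), and both agents placed it above Vehicle. Egr2, its relative, was at 103, 118 and 108 CPM with SR-3420 and at 22.8, 22.2 and 13.9 CPM with ISO, of which the lowest sample lay within the Vehicle range of 8.85, 9.27 and 14.1 CPM (log2FC -2.46 ± 0.17, adjusted p = 3.73e-10).

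Fos was at 75.5, 87.6 and 61.5 CPM with SR-3420, 27.5, 40.5 and 14.7 CPM with ISO and 9.35, 12.4 and 7.06 CPM in Vehicle (log2FC -1.42 ± 0.26, adjusted p = 0.000364). Fosb followed the same order at 22.6, 27.2 and 25.3 CPM with SR-3420, 7.77, 13.3 and 5.88 CPM with ISO and 3.16, 3.32 and 2.29 CPM in Vehicle (log2FC -1.47 ± 0.27, adjusted p = 0.000295). In Egr1, Fos, Fosb, Arc, Zfp36 and Dusp1, ISO sample 2 was the highest and ISO sample 3 the lowest of the ISO samples. This order was not particular to them. It was also that of Ucp1, Vdr, Gyk and Acsl4, higher with ISO, but not that of Ppargc1a or Irf4. Ier2 was even, at 199, 206 and 186 CPM with SR-3420 and 66.7, 67.6 and 66.1 CPM with ISO, against 49.2, 46.8 and 43.8 CPM in Vehicle (log2FC -1.56 ± 0.07, adjusted p = 8.61e-13). Zfp36, which encodes a protein that destabilises cytokine mRNAs, was at 232, 276 and 245 CPM with SR-3420 and 103, 145 and 68.2 CPM with ISO (log2FC -1.24 ± 0.16, adjusted p = 6.48e-06), and Arc, first known from stimulated neurons, at 118, 151 and 111 CPM with SR-3420 and 36.2, 44.4 and 26.3 CPM with ISO (log2FC -1.82 ± 0.17, adjusted p = 7.22e-08). The Fos family was not uniform. Fosl2 (0.80 ± 0.07, adjusted p = 1.89e-08) and Fosl1 (0.93 ± 0.14, adjusted p = 2.41e-05) were higher with ISO, and the span of Fosl1 overlaps Ccdc85b on the other strand by 2776 bases. Egr3 and Klf2, named after their values were seen, were the remaining 2 of the 7 called.

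Transcripts for a pair of proteins that restrain fat release and uptake were higher with SR-3420. G0s2, which binds and inhibits ATGL (mm9 chromosome 1, 195098354 to 195099382), was at 1101, 1120.3 and 1063 CPM with SR-3420. With ISO it was at 276, 303 and 261 CPM, inside the Vehicle range of 391, 382 and 246 CPM, and the difference was 3.90-fold (log2FC -1.96 ± 0.18, adjusted p = 5.35e-08). Angptl4, a secreted inhibitor of lipoprotein lipase (mm9 chromosome 17, 33911845 to 33918520), was at 1265, 1439.9 and 1378 CPM with SR-3420, 392.5, 475 and 305 CPM with ISO and 554, 597 and 408 CPM in Vehicle (log2FC -1.80 ± 0.14, adjusted p = 6.08e-09). Against Vehicle, Angptl4 had a log2FC of 1.39 ± 0.14, adjusted p = 5.54e-08 with SR-3420 and -0.41 ± 0.14, adjusted p = 0.0187 with ISO. Both are known targets of PPARs, nuclear receptors for fatty acids. Pdk4, the pyruvate dehydrogenase kinase that spares glucose and another such target, was at 4650.3, 4646 and 4531 CPM with SR-3420 and 2852, 3033 and 2705 CPM with ISO (log2FC -0.69 ± 0.09, adjusted p = 7.37e-06).

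PPAR target genes were not on 1 side. Of 41 tested, 5 were called higher and 2 lower with ISO, 19 and 4 without the fold threshold, with a median log2FC of 0.21 and medians against Vehicle of 0.54 with ISO and 0.50 with SR-3420. The members higher with ISO include Gyk, Slc25a42, a mitochondrial coenzyme A carrier, and Cpt2, which releases long-chain acyl-CoA for oxidation inside mitochondria. SR-3420 lay below Vehicle for the latter pair. Slc25a42 was at 140.5, 126 and 130.2 CPM in Vehicle, 205, 191 and 217 CPM with ISO and 76.6, 71.7 and 80.4 CPM with SR-3420 (log2FC 1.42 ± 0.07, adjusted p = 2.54e-12), and Cpt2 was at 224, 221 and 232 CPM in Vehicle, 239, 224 and 261 CPM with ISO and 151, 149.8 and 157 CPM with SR-3420 (log2FC 0.66 ± 0.07, adjusted p = 7.17e-07).

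With TMM scaling, lipid-handling lists leaned towards ISO with small differences. For these and for the lipogenesis and cholesterol lists below, the lean depends in part on the scaling. Total counts alone moved the median log2FC of all genes by -0.15. Of 23 lipolysis and lipid droplet genes, 1 was called higher and 1 lower, and 13 were higher and 1 lower without the fold threshold (median log2FC 0.28). Ffar4, a receptor for long-chain fatty acids, was at 367, 309 and 401 CPM with ISO, 142, 126 and 145 CPM with SR-3420 and 108, 112 and 99.4 CPM in Vehicle (log2FC 1.38 ± 0.09, adjusted p = 2.08e-10). Lpl, the lipoprotein lipase, was at 13417, 12330.0 and 15149.5 CPM with ISO and 8594, 7679 and 8378 CPM with SR-3420, wholly above and wholly below the 10107, 9649 and 12105 CPM of Vehicle (log2FC 0.73 ± 0.11, adjusted p = 2.85e-05). Bscl2, the droplet protein seipin, had a log2FC of 0.57 ± 0.08, adjusted p = 1.01e-05. Its span overlaps Gng3 by 1780 bases on the other strand.

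Of 28 lipogenesis and triglyceride synthesis genes, 3 were called higher and 0 lower, and 15 and 3 passed without the fold threshold (median 0.27). The members higher with ISO included enzymes of triglyceride assembly and, named after their values were seen, the desaturase Scd1 (0.85) and the elongase Elovl5 (0.83). Acsl4, an acyl-CoA synthetase, was at 461, 587 and 363 CPM with ISO and 215, 218 and 189 CPM with SR-3420 (log2FC 1.18 ± 0.11, adjusted p = 5.92e-08). Lpin1, a phosphatidate phosphatase, was at 996, 872 and 1064 CPM with ISO and 565, 529 and 583 CPM with SR-3420 (log2FC 0.81 ± 0.10, adjusted p = 3.04e-06). Gpam, the first acyltransferase of the pathway, was low with SR-3420 and overlapped with Vehicle with ISO. It was at 273, 264 and 285 CPM with SR-3420, 488, 414 and 527 CPM with ISO and 445, 464 and 512 CPM in Vehicle (log2FC 0.80 ± 0.08, adjusted p = 3.76e-07). The 3 members lower with ISO act in or regulate fatty acid synthesis, namely Mlxipl (-0.38), which encodes the carbohydrate-response factor ChREBP, Thrsp (-0.47) and the fatty acid synthase Fasn (-0.27, adjusted p = 0.0221), the last not past the threshold without ISO sample 2 (adjusted p = 0.129), SR-3420 sample 2 (0.0545) or SR-3420 sample 3 (0.0548).

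In the cholesterol synthesis and SREBP list, 16 of 26 members passed the test as higher with ISO and 1 as lower, but 0 were called with the fold threshold in either direction. The median log2FC was 0.30, and against Vehicle 0.29 with ISO and -0.02 with SR-3420. Sqle, squalene epoxidase, was at 242, 229 and 241 CPM with ISO, 135, 131 and 123 CPM with SR-3420 and 94.3, 101 and 89.01 CPM in Vehicle (log2FC 0.88 ± 0.08, adjusted p = 5.09e-08), and Hsd17b7 and Msmo1, later enzymes of the pathway, had log2FC of 0.88 and 0.65. Srebf1, whose product drives fatty acid synthesis, was the lower member, at 617, 557 and 648 CPM with ISO, 803, 838 and 872 CPM with SR-3420 and 1210.3, 1150.2 and 1037 CPM in Vehicle (log2FC -0.46 ± 0.08, adjusted p = 0.000135).

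Stress genes under ATF4 that passed the test were lower with ISO in all cases but Ddit4. Of 41 tested, 1 was called higher and 4 lower, and 1 and 15 passed without the fold threshold (median log2FC -0.19, medians against Vehicle 0.90 with ISO and 1.03 with SR-3420). Ddit3, which encodes the stress factor CHOP (mm9 chromosome 10, 126727849 to 126733344), was at 493, 547 and 478 CPM with SR-3420, 213, 211 and 235 CPM with ISO and 151, 129 and 135 CPM in Vehicle, 3 separate ranges. SR-3420 exceeded ISO 2.30-fold (log2FC -1.20 ± 0.07, adjusted p = 5.84e-11). Ddit3 and Mars, on opposite strands, share 68 bases. Chac1, an enzyme that degrades glutathione, was at 150.0, 171 and 151 CPM with SR-3420, 67.2, 59.7 and 64.5 CPM with ISO and 40.00, 30.5 and 31.9 CPM in Vehicle (log2FC -1.30 ± 0.11, adjusted p = 1.89e-08).

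Gdf15, a secreted stress factor on the same list, was at 175, 192 and 142 CPM with SR-3420 and 80.5, 82.3 and 72.3 CPM with ISO, against 13.5, 13.5 and 8.47 CPM in Vehicle (log2FC -1.11 ± 0.14, adjusted p = 5.44e-06). Ppp1r15a, the phosphatase subunit GADD34, had a log2FC of -0.70 ± 0.08, adjusted p = 1.07e-06. Ddit4, an inhibitor of mTORC1 signalling, was the exception on the ISO side, at 510.2, 555 and 456 CPM with ISO and 235, 278 and 230.4 CPM with SR-3420 (log2FC 1.03 ± 0.12, adjusted p = 1.03e-06). Stc2 was the fourth member called lower, named after its values were seen. Fgf21 and Atf4 were also named after their values were seen. For Fgf21, a hormone that ATF4 and PPARs induce, ISO gave 42.9 ± 11.7 CPM and SR-3420 44.9 ± 13.2 CPM (SD, n = 3), with a log2FC of -0.06 and a 95% confidence interval of -0.41 to 0.30 (adjusted p = 0.837). Atf4 itself had -0.32 (adjusted p = 0.00335).

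A further list holds the 24 markers of the unfolded protein response that the study lists and scores in these samples. Of them, 1 was called higher and 2 lower with ISO, and 3 and 7 passed without the fold threshold (median log2FC -0.11). Dnaja4, a co-chaperone of HSP70, was at 63.98, 74.9 and 59.03 CPM with ISO and 19.3, 26.1 and 18.9 CPM with SR-3420 (log2FC 1.63 ± 0.13, adjusted p = 7.02e-09), whereas Thbs1, thrombospondin 1, was at 901, 1002 and 802 CPM with ISO and 1929, 2075 and 1702 CPM with SR-3420 (log2FC -1.08 ± 0.10, adjusted p = 6.94e-08). Among 30 chaperones and degradation factors of the endoplasmic reticulum (ER), 0 were called. Without the fold threshold 6 (20%) were higher and 5 (16.7%) lower, near the 15.8% and 13.9% of all genes tested. The median of 0.03 became -0.12 on total counts alone. Hsp90b1, an ER chaperone, had a log2FC of 0.40 ± 0.06, adjusted p = 2.80e-05, and Herpud1, a degradation factor, -0.80 ± 0.12, adjusted p = 4.61e-05. Calr, Edem1 and Tmem33, higher with ISO by 0.26 to 0.36, did not pass on total counts alone. For Hspa5, the chaperone BiP, named after its values were seen, the log2FC was 0.01 (95% confidence interval -0.14 to 0.15).

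Of 20 cytosolic heat shock genes, Dnaja4 alone was called. Without the fold threshold 5 (25%) were higher and 2 (10%) lower, against 15.8% and 13.9% of all genes tested. Bag3, a co-chaperone of autophagy, was at 311, 364 and 273 CPM with ISO, 184, 199 and 170.4 CPM with SR-3420 and 93.6, 86.9 and 88.9 CPM in Vehicle (log2FC 0.78 ± 0.09, adjusted p = 1.30e-06). Oxidative stress genes under NRF2 split by gene. Of 19 tested, 2 were called higher and 1 lower. Gclc, which encodes the catalytic subunit of the limiting enzyme of glutathione synthesis, was at 200.5, 223 and 203 CPM with ISO and 98.5, 91.3 and 89.5 CPM with SR-3420, the latter overlapping the 91.8, 97.3 and 115 CPM of Vehicle (log2FC 1.17 ± 0.10, adjusted p = 9.42e-09), and Srxn1, sulfiredoxin, was at 487, 661 and 337 CPM with ISO and 205, 223 and 182 CPM with SR-3420 (log2FC 1.28 ± 0.15, adjusted p = 1.07e-06). Osgin1, an oxidative stress-induced growth inhibitor, was on the other side at 47.3, 52.1 and 41.2 CPM with ISO, 112, 124 and 127 CPM with SR-3420 and 15.5, 13.99 and 15.4 CPM in Vehicle (log2FC -1.36 ± 0.12, adjusted p = 2.26e-08), as was Slc7a11, the cystine importer (-0.68 ± 0.12, adjusted p = 0.00028). Nfe2l3, a relative of NRF2 outside the list, was low with ISO alone, at 3.89, 3.69 and 4.41 CPM against 10.7, 9.16 and 9.91 CPM with SR-3420 and 9.86, 9.81 and 11.6 CPM in Vehicle (log2FC -1.32 ± 0.17, adjusted p = 4.87e-06).

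Insulin signalling and FOXO-type genes were spread over both sides (23 tested, 1 called higher, 2 lower, and 9 and 7 without the fold threshold). The insulin receptor substrates were higher with ISO, Irs1 at 1459, 1377 and 1399 CPM with ISO and 730.1, 689 and 743 CPM with SR-3420 (log2FC 0.97 ± 0.06, adjusted p = 2.65e-10), and Irs2 at 1196, 1127 and 1106 CPM with ISO and 631, 573 and 678 CPM with SR-3420 (log2FC 0.87 ± 0.09, adjusted p = 1.56e-07). SR-3420 overlapped with Vehicle for Irs1 (642, 704 and 715 CPM) and not for Irs2 (186, 241 and 220.4 CPM). Txnip, an inhibitor of thioredoxin and of glucose uptake, was higher with SR-3420, at 3842, 4022 and 4124 CPM against 1932, 2224 and 1729 CPM with ISO (log2FC -1.03 ± 0.09, adjusted p = 3.33e-08). Of 35 glycolytic and hypoxia-inducible genes, 1 was called and 16 were higher and 1 lower without the fold threshold (median 0.25). Slc16a3, a lactate exporter, had a log2FC of 0.89 ± 0.10, adjusted p = 1.73e-06 and Egln1, a prolyl hydroxylase of the hypoxia-inducible factor, 0.74 ± 0.06, adjusted p = 1.01e-08. The gene called was Gapdh, whose many near-identical pseudogene copies can share its reads, so that its 65.6 ± 6.90 and 26.4 ± 5.03 CPM (SD, n = 3) are uncertain.

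Of 19 clock genes tested, 0 were called. Without the fold threshold 4 (21.1%) were higher and 5 (26.3%) lower, against 15.8% and 13.9% of all genes tested. Per1, a period gene with cAMP-responsive transcription, was at 70.3, 76.6 and 68.6 CPM with ISO and 44.4, 45.4 and 49.2 CPM with SR-3420 (log2FC 0.63 ± 0.09, adjusted p = 1.06e-05), while the repressors Nr1d1 (-0.53 ± 0.10, adjusted p = 0.000282) and Cry2 (-0.52 ± 0.07, adjusted p = 1.19e-05) were lower with ISO. Of 21 inflammatory cytokine and chemokine genes, 1 was called higher and 2 lower with ISO, and 3 and 9 passed without the fold threshold. Il6 was higher with ISO at very low levels of 1.94, 1.76 and 2.00 CPM against 0.441, 0.717 and 0.839 CPM with SR-3420 (log2FC 1.47 ± 0.37, adjusted p = 0.00465). Ptges, a prostaglandin E synthase, was lower, at 23.9, 40.97 and 19.7 CPM with ISO against 56.7, 73.7 and 50.9 CPM with SR-3420 (log2FC -1.09 ± 0.18, adjusted p = 0.000134). Lif was the other member called lower, named after its values were seen.

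Among 25 genes of secreted factors, 2 were called on each side, and 9 were higher and 5 lower without the fold threshold. Nrg4, a growth factor of brown fat, was at 92.5, 95.03 and 99.1 CPM with ISO, 51.8, 46.7 and 46.3 CPM with SR-3420 and 23.2, 25.9 and 27.4 CPM in Vehicle (log2FC 0.98 ± 0.09, adjusted p = 6.73e-08), and its span overlaps Fbxo22 on the other strand by 4212 bases. Metrnl, a secreted protein of muscle and fat, was at 47.6, 59.1 and 29.7 CPM with ISO and 22.1, 27.4 and 19.3 CPM with SR-3420 (log2FC 1.00 ± 0.17, adjusted p = 0.000184), and Ereg, an EGF receptor ligand, was lower with ISO (-0.81 ± 0.11, adjusted p = 1.21e-05). Of 40 glycosyltransferases, 4 were called higher and 0 lower, with a median of 0.07, near that of all genes. Without the fold threshold 11 (27.5%) were higher and 2 (5%) lower, against 15.8% and 13.9% of all genes tested. St6galnac2, a sialyltransferase, was at 41.6, 43.9 and 40.02 CPM with ISO and 16.5, 19.8 and 16.1 CPM with SR-3420 (log2FC 1.27 ± 0.11, adjusted p = 1.51e-08). St3gal1, another, lay on either side of Vehicle (115, 118 and 131 CPM) at 217, 269.8 and 170.1 CPM with ISO and 97.9, 97.3 and 93.2 CPM with SR-3420 (log2FC 1.19 ± 0.11, adjusted p = 3.30e-08).

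**Figure D4:**
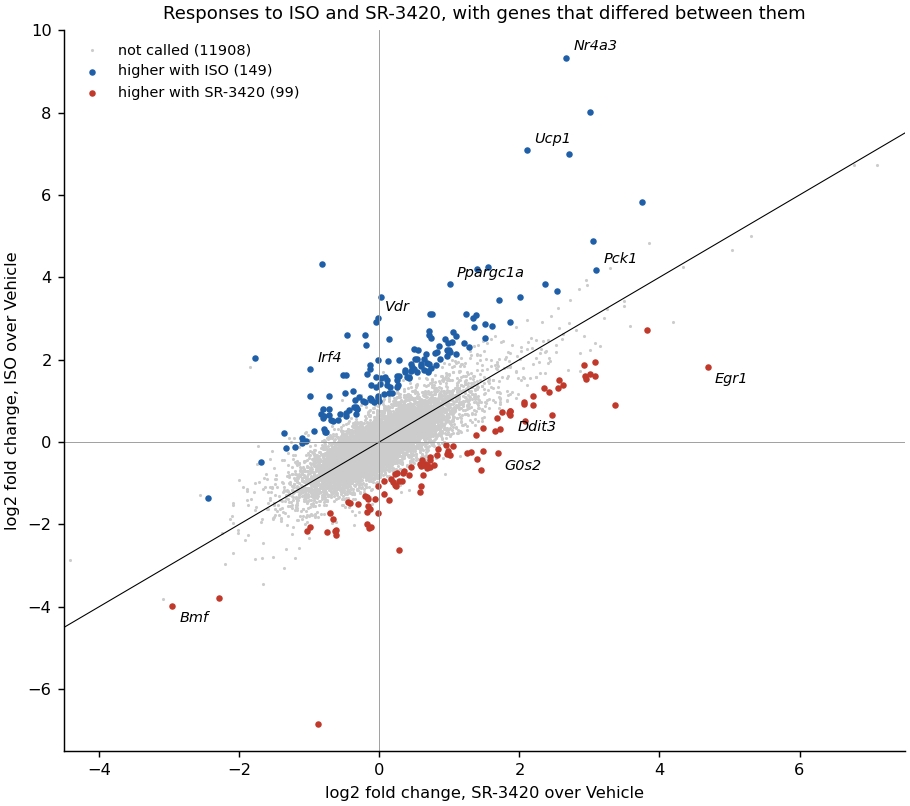
Log2FC over Vehicle with SR-3420 (horizontal) and ISO (vertical) for the 12156 genes tested, with genes called between the agents in blue (149, higher with ISO) and red (99, higher with SR-3420). The line marks equal changes. Both axes share the Vehicle samples and their stimulated samples with the calls, so the plot describes where the called genes lie, with Nr4a3 at the top and Egr1 farthest to the right among the red points.

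The comparisons of ISO and of SR-3420 with Vehicle share the Vehicle samples, and their values are set side by side only. Over the 149 genes higher with ISO the median log2FC was 1.75 against Vehicle for ISO, with 115 called higher and 1 lower (5.03% and 4.07% of all genes), and 0.25 for SR-3420, with 26 and 8 (3.97% and 2.37%). Over the 99 genes lower with ISO it was -0.57 for ISO, with 14 and 28 called, and 0.65 for SR-3420, with 38 and 3. The median of all genes tested was -0.02 in both comparisons. The median span from transcript start to end was 17185 bases for the 149 genes, 11714 for the 99 and 21738 for all genes tested, and spans under 5 kb made up 20.1%, 28.3% and 12.9%. The counted length, which holds exons only, was alike at 2812, 2580 and 2794.5 bases.

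The same comparison of agents was then read in the 6 samples pretreated with lipase inhibitors, which share no sample with the calls. Over those samples 649 genes (5.34%) were higher with ISO and 954 (7.85%) lower. Of the 149 genes, 112 (75.2%) were called higher with ISO and 0 lower, 139 had a log2FC above 0, and the median was 1.86, against -0.01 over all genes tested. These 112 are 17.3% of the 649. Of the 99 genes, 44 (44.4%) were called lower and 5 higher, with a median of -0.86, and the 44 are 4.61% of the 954. Lipase Inh. + SR-3420 sample 2 stood apart, with 4263755 total counts of which 18.3% fell on the single gene Lars2. Without it, 112 of the 149 were called higher and 0 lower, and 41 of the 99 lower and 4 higher, with medians of 1.86 and -0.89. Against Lipase Inh. + Vehicle, Lipase Inh. + ISO was called higher in 113 of the 149 genes and lower in 0, and lower in 36 of the 99 and higher in 5, where 5.43% and 7.63% of all genes were called.

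With inhibitors, Vdr was at 831, 816 and 822 CPM with ISO and 10.00, 10.9 and 10.6 CPM with SR-3420, a log2FC of 6.30 ± 0.10, adjusted p = 1.70e-21. Ucp1 was at 683, 789 and 553 CPM with ISO and 3.24, 3.46 and 2.23 CPM with SR-3420 (log2FC 7.92 ± 0.30, adjusted p = 2.53e-15). For both, the gap between the agents was wider with inhibitors than without. Ppargc1a was the reverse, at 332, 322 and 325 CPM with ISO and 136, 143 and 153 CPM with SR-3420, a log2FC of 1.18 ± 0.08, adjusted p = 7.85e-11. Irf4 also narrowed, to 0.68 ± 0.15, adjusted p = 0.000722.

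On the SR-3420 side, Ddit3 was at 56.9, 56.9 and 56.4 CPM with ISO and 263, 250.2 and 247 CPM with SR-3420 (log2FC -2.16 ± 0.08, adjusted p = 1.78e-15), and Chac1 at 9.18, 8.24 and 5.73 CPM with ISO and 82.3, 75.9 and 68.1 CPM with SR-3420 (log2FC -3.33 ± 0.14, adjusted p = 2.62e-14). Lipase Inh. + Vehicle was at 157, 144 and 169 CPM for Ddit3 and 33.5, 32.6 and 39.1 CPM for Chac1. With inhibitors ISO thus lay below its Vehicle for both genes, whereas without inhibitors it lay above, and SR-3420 lay above Vehicle in both settings. Immediate early genes were mixed. Egr1 stayed lower with ISO (-1.44 ± 0.18, adjusted p = 4.25e-07), whereas Arc (1.25 ± 0.18, adjusted p = 2.82e-06), Fosb (1.36 ± 0.40, adjusted p = 0.00656) and Zfp36 (0.77 ± 0.19, adjusted p = 0.00121) were higher with ISO in the presence of inhibitors, and Fos had 0.69 ± 0.38, adjusted p = 0.128. G0s2 (-1.55 ± 0.18, adjusted p = 2.43e-07) and Angptl4 (-2.03 ± 0.15, adjusted p = 1.25e-10) were lower with ISO with inhibitors as well.

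**Figure D5:**
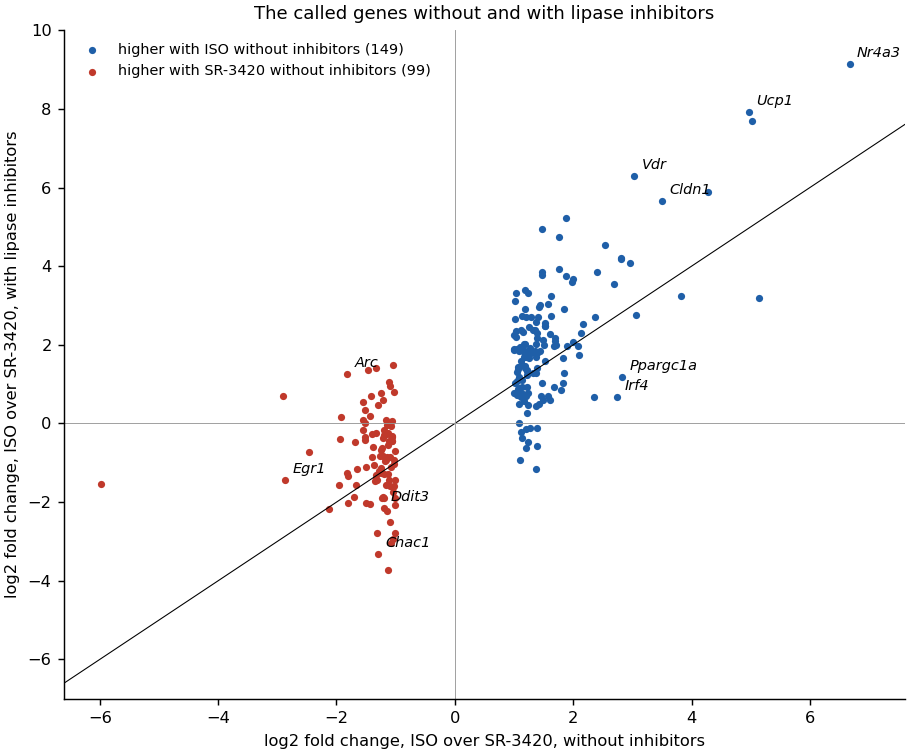
Log2FC of ISO over SR-3420 for the 248 called genes without inhibitors (horizontal, the values that chose the genes) and with lipase inhibitors (vertical, samples not used in the choice). The line marks equal values. Of the 149 blue genes 139 lie above 0 on the vertical axis, and of the 99 red genes 79 lie below 0.

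Whether the difference between the agents itself changed with inhibitors was tested as an interaction, the difference without inhibitors minus that with them. Over all genes, 540 (4.44%) had a positive and 355 (2.92%) a negative interaction past the thresholds. Among the 149 genes the numbers were 11 and 39, and among the 99 they were 9 and 20. These genes were chosen on the samples without inhibitors, which enter the interaction, so the counts are given as a description. For Vdr it was -3.26 ± 0.13, adjusted p = 3.43e-13, for Ppargc1a 1.65 ± 0.11, adjusted p = 8.15e-10 and for Ddit3 0.96 ± 0.10, adjusted p = 4.18e-07. Trib1 had a log2FC of 2.00 without and 2.08 with inhibitors, and its interaction of -0.08 ± 0.14, adjusted p = 0.701 did not pass.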

How the data were processed

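The authors mapped RNA-seq reads to mm9 with STAR 2.4.2a, made tag directories with HOMER keeping a single read per position and length, and used iRNA-seq to count reads in RefSeq genes. The deposited values are raw counts per gene in 18 samples. Whether the limit on reads per position capped the highest gene, Scd1, was not tested, and use of strand was not stated in the sources used here. Besides the counts, the deposited table holds other columns with each gene's start, end, span and counted length, whose starts were read as 0-based and are printed 1-based.

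Counts were tested in edgeR 4.0.16 (R 4.3.3) with filterByExpr (minimum count 10, minimum total 15), TMM factors and a quasi-likelihood fit of group means over all 18 samples, with Benjamini-Hochberg adjustment over 12156 genes. SE was the absolute log2FC divided by the square root of F. CPM were scaled by TMM. DESeq2 1.42.0, other scalings, filters and sample sets, and leaving out each sample were tried as alternatives. The fits were tested on simulated data.

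The members and gene lists were chosen with earlier results of these data known. Named genes were Ucp1, Vdr and Ddit3, the 12 called genes per direction with the largest log2FC, a mean log2 CPM of 3 or more and 1 direction across the 3 same-numbered pairs, and up to 3 members per direction of each list by adjusted p. Others were named after their values were seen. A gene that the rule names is not reported here. Promoter windows came from RefSeq (GRCm38.p6), and motifs were searched on both strands.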

Additional observations from a re-analysis of the deposited data

Results flagged for a closer look

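Of 25 genes, the 12 with the largest difference in each direction at a mean log2 CPM of 3 or more and Ddit3, 21 had a difference between ISO and SR-3420 that itself differed between samples without and with lipase inhibitors (edgeR interaction, adjusted p at most 0.05), 16 with a negative and 5 with a positive interaction. At that cut, which has no fold threshold, 2060 of the 12156 genes tested had a positive and 2116 a negative interaction. The samples without inhibitors also chose these genes. Values are log2FC without minus with inhibitors, with SE.

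Among genes higher with ISO the gap between the agents was wider with inhibitors for Vdr (-3.26 ± 0.13), Ucp1 (-2.95 ± 0.40), Nr4a3 (-2.48 ± 0.62), Cldn1 (-2.15 ± 0.21), Dos (-2.02 ± 0.18), Krt13 (-1.68 ± 0.47), Lrrn4cl (-1.40 ± 0.17), Adcy3 (-1.38 ± 0.18) and Pde4d (-0.84 ± 0.13). It was narrower with inhibitors for Irf4 (2.07 ± 0.22) and Ppargc1a (1.65 ± 0.11).

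Among genes lower with ISO without inhibitors, the interaction was negative for Egr2 (-1.73 ± 0.27), Egr1 (-1.43 ± 0.24), Ier2 (-1.40 ± 0.11), Fosb (-2.83 ± 0.48), Arc (-3.07 ± 0.25), Zfp36 (-2.02 ± 0.25) and Fos (-2.11 ± 0.46). With inhibitors Fosb (1.36), Arc (1.25) and Zfp36 (0.77) were higher with ISO, so the sign was reversed, and Fos (0.69) did not pass. The deficit with ISO was larger with inhibitors for the stress genes Chac1 (2.03 ± 0.18) and Ddit3 (0.96 ± 0.10), and for Nfe2l3 (1.48 ± 0.26). Groups of 3 samples are too small for a test of outlying samples.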

How the results depend on the processing

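For the 25 genes named first (12 in each direction and Ddit3), all 350 values under the alternatives run kept their direction and side of the threshold. For the other named genes 1153 values did so and 50 no longer passed, most often of Cd14, Myod1 and Dnajb1. The fold threshold was not part of this check. On total counts alone, 108 of the 149 genes called higher with ISO and all 99 called lower stayed called. Counts within gene lists stayed within 1.5 times in 684 cases and moved further in 84. Scaled by total counts, calls between ISO and SR-3420 were 108 and 178, Lipase Inh. + ISO against Lipase Inh. + Vehicle gave 439 and 1436, ISO against Vehicle 339 and 1191, and SR-3420 against Vehicle 501 lower. Tested against a 1.5-fold change, 45 genes were lower with ISO than with SR-3420. With no fold threshold the numbers higher and lower were 1916 and 1693 for ISO against SR-3420, 3480 and 3439 for the same with inhibitors, 3574 and 3440 for Lipase Inh. + ISO against its Vehicle, 2060 and 2116 for the interaction, 3258 and 3042 for ISO against Vehicle, and 3165 and 3089 for SR-3420 against Vehicle.

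Leaving out each sample in turn gave 126 to 162 genes higher and 77 to 103 lower for ISO against SR-3420, 608 to 687 and 908 to 980 with inhibitors, 637 to 696 and 874 to 980 for Lipase Inh. + ISO against its Vehicle, 505 to 579 and 327 to 384 for the interaction, 556 to 666 and 468 to 528 for ISO against Vehicle, and 460 to 516 and 265 to 325 for SR-3420 against Vehicle. DESeq2 called 137 and 86 genes, of which 135 and 85 were shared. With the replicate number as a block, 152 genes were higher and 105 lower (146 and 98 shared). Deviations of same-numbered samples correlated at -0.0085, 0.249 and 0.204 across genes. ISO sample 1 had -0.010 and 0.020 with SR-3420 samples 2 and 3. ISO sample 2 had -0.213 with SR-3420 sample 3, and ISO sample 3 had -0.248 with SR-3420 sample 2. Whether a number marks a shared experiment was not settled. The main fit did not pair the samples, while the naming rule and the block fit used the numbers.

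Depth limits the 55 and 61 called genes with an average log2 CPM under 3.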
